A study of Mus musculus with 16 samples.

Results

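The baseline transcriptome of the control weanling hypothalamus was described from the 8 arrays of control (CON) mice, out of 16 arrays in the series. They were chosen by the deposited sample titles, and every mouse behind them was a C57BL/6J female of the F1 generation, 21 days of age, nursed in a litter of 8 pups by a mother fed ad libitum. In the series, these mice were the controls for offspring of mothers underfed during lactation, whose arrays were not compared here. The hypothalamus was cut between the optic chiasm and the mammillary bodies, and total RNA of each mouse was hybridized without pooling to 1 array of an Illumina MouseRef-8 v2 BeadChip. A BeadChip is a slide that holds several arrays side by side, and each probe on it is carried by many beads whose mean fluorescence is the signal. CON 1 to CON 4 lay on BeadChip 1 at positions A to D, and CON 5 to CON 8 lay on BeadChip 2 at the same positions. Arrays are numbered here by the replicate number of the sample titles, which can differ from the number in the headings of the deposited signal table. No label ties a mouse to its litter, so mice are treated as independent although some may be littermates.

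The hypothalamus is a small region at the base of the forebrain, made of many nuclei whose neurons release peptides that govern feeding, water balance, body temperature, stress, growth and reproduction. Each nucleus is set by its own transcription factors and holds only a small share of the cells of the block. The block is bordered by the thalamus above, the striatum and basal forebrain at its sides and front, the pituitary below, and the meninges and choroid plexus at its surfaces, and each of these carries transcripts of its own. Myelin is still being laid down in mice of weaning age. In tissue RNA of this kind, fewer cells of a type and less RNA per cell cannot be told apart.

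The 8 arrays were of like depth of signal. The mean signal over all probes lay between 394 on CON 2 and 516 on CON 3, the number of probes with a detection p-value under 0.05 lay between 14560 on CON 5 and 15384 on CON 1, and the correlation between arrays across the probes detected on all 8 arrays lay between 0.985 and 0.994 (Pearson r, across probes, which are not independent). The brightest signal on any array was 34560. The number of arrays, 8, limits the precision of every spread given below.

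A transcript was called detected where its signal exceeded the negative control beads of its array at a detection p-value under 0.05. Of 25697 probes, 13320 (51.8%) were detected on all 8 arrays, 8662 (33.7%) on none, and 3715 (14.5%) on 1 to 7 arrays. By gene, 9363 of 16593 genes with a named probe had a probe detected on all 8 arrays and 5013 had none detected on any array. The probes seen on a single array numbered 997, of which 215 were on CON 1 and 60 on CON 7.

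The markers of the labelled tissue were largely detected. Of 30 hypothalamic neuropeptide genes with a named probe, 22 were detected on all 8 arrays, 6 on some and 2 (Galp and Qrfp) on none. Among the brightest was Pmch, the precursor of melanin-concentrating hormone of the lateral hypothalamus, with a normalized log2 value between 12.29 and 13.15 (median 12.96). Sst, the growth-hormone-inhibiting peptide somatostatin, lay between 11.87 and 12.59. Kiss1, the peptide that drives the neurons of the reproductive axis, was detected on 6 of 8 arrays, with signals of 71.1 to 100.8 (median 84.7), close to the lowest signals of detected probes, which were 72.6 to 79.7 by array.

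The regional transcription factors were nearer to background. Of 24 with a named probe, 11 were detected on all 8 arrays and 8 on none. Nkx2-1, required for the ventral hypothalamus to form, was detected on all 8 arrays at 8.50 to 9.52, as was Isl1 at 9.51 to 10.35. The probes of Otp and Sim1, which specify the paraventricular nucleus, and of Nr5a1, which marks the ventromedial nucleus, were not detected on any array, with highest signals of 59.1, 64.9 and 77.2. A probe below background did not always mean a transcript that such tissue lacks. The probes of Snap25 (1 array), Nefl (none) and Gad2 (none), all abundant in neurons, were at background, while Gad1, Syp and Map2 were bright on all 8 arrays.

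**Figure D1:**
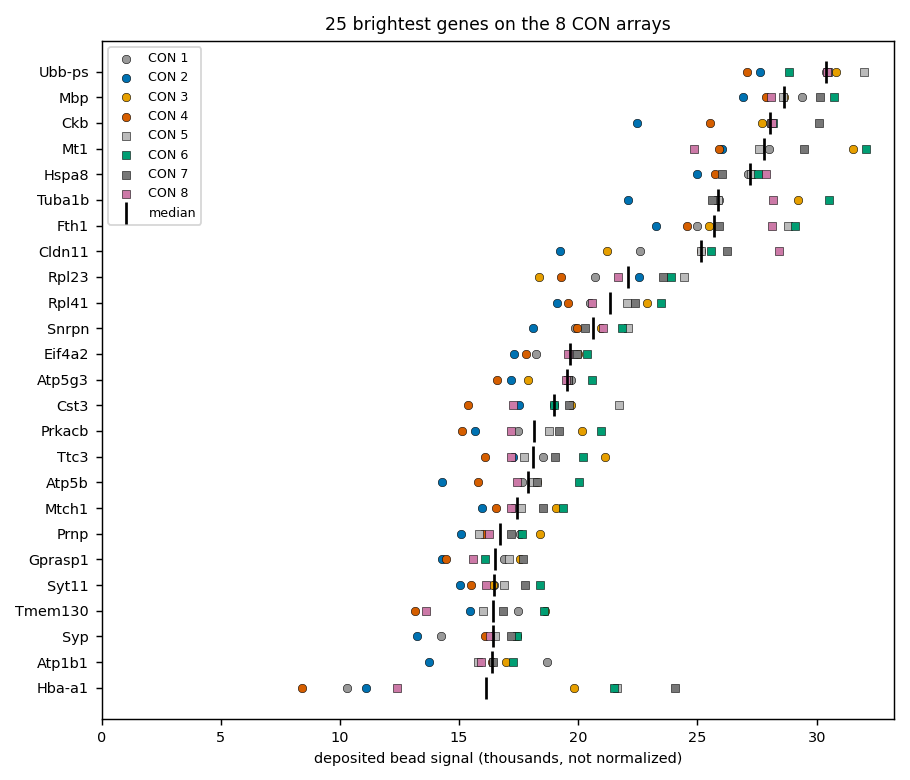
Deposited bead signal, not normalized, of the 25 brightest genes (rows, ordered by their median) on the 8 CON arrays (points), with the median as a bar. Most genes stay within a narrow band, whereas Hba-a1 runs from 8412 to 24070.

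The brightest genes were ordinary parts of neurons, glia and every cell. Signal also depends on how well a probe binds, so the order below is one of signal and not of transcript number. Probes without a gene symbol were left out of this order. On CON 6, for example, the highest signal of any probe was 34560, against 28840 for the first gene in the order. That gene, first by its median, is Ubb-ps, a pseudogene entry of the ubiquitin gene Ubb. Its signal lay between 27060 and 32000 (median 30410), and whether its probe also binds Ubb itself was not tested. Mbp, the myelin basic protein, followed with signals between 26930 and 30730 (median 28610). Ckb, the brain creatine kinase, reached a median of 28060 and was lowest on CON 2 at 22460. After these came Mt1 (a metal-binding metallothionein, median 27780) and Hspa8 (the constitutive heat shock protein, median 27200).

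Of the 25, 10 belonged to any of the gene lists. Myelin gave Mbp and Cldn11, the tight-junction protein of myelin (median 25150, from 19240 on CON 2 to 28440 on CON 8). Protein synthesis gave the ribosomal proteins Rpl23 and Rpl41 and the helicase Eif4a2, and ATP synthase gave Atp5g3 and Atp5b. Of the neuronal list only Syp, a protein of synaptic vesicles, was among the 25 (13230 to 17410, median 16400). Snrpn, Syt11, Gprasp1, Tuba1b, Fth1, Cst3, Prkacb, Ttc3, Mtch1, Prnp, Tmem130 and Atp1b1 completed the set apart from the last, Hba-a1. The 100 brightest probes held between 12.2% and 13.6% of the summed signal of an array.

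Among the brightest 25, Hba-a1 stood apart in its spread. Hba-a1, the alpha chain of adult haemoglobin and a product of red cells, had a signal between 8412 on CON 4 and 24070 on CON 7 (median 16110), a coefficient of variation of 38.3%. The other 24 had coefficients between 3.80% (Hspa8) and 12.8% (Tmem130). Genes of near-identical copies, as Hba-a1 has, cannot be told apart by probes in sequence they share. The rank just below Hba-a1 belonged to Ndn, an imprinted gene of neurons, at a median of 15300.

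Spread was measured on background-corrected, quantile-normalized log2 values of the 8 arrays, as the standard deviation (SD) over arrays of each of the 9363 genes detected on all of them. The median SD was 0.14, the 90th percentile 0.26 and the 99th percentile 0.49. An SD above 0.5 was found in 86 genes (0.919%) and one above 1 in 8 genes. Dim genes varied more. The median SD was 0.18 in genes whose mean was under 7.86 and 0.11 in the 5051 genes between 7.86 and 13.08.

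**Figure D2:**
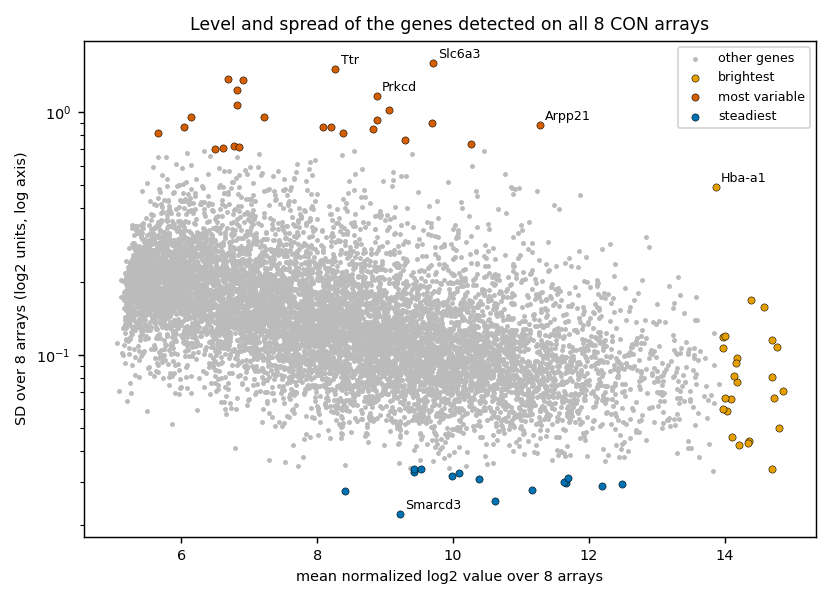
SD over the 8 CON arrays (log2 units, log axis) against the mean normalized log2 value of each of 9363 genes (points), with the brightest, most variable and steadiest genes in colour. Spread declines with level, and Slc6a3, with an SD of 1.58, and Hba-a1, with one of 0.49, lie far above genes of like level.

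Of the 25 most variable genes, 13 belonged to any of the 29 gene lists, 7 of them to the thalamic list and 1 to the hypothalamic peptides (Cck). Slc6a3, the dopamine transporter, had the highest SD (1.58). Its log2 value was 6.47 on CON 3 and 8.17 on CON 6 and lay between 10.07 and 11.31 on the other 6 arrays, a 28.8-fold span between the extremes. Ttr, the thyroxine carrier made in quantity by the choroid plexus, came next (SD 1.49), at 6.28 on CON 6, a median of 8.13 and 10.84 on CON 4. These genes were named for their SD, so the SD is a description and not a test. At the lower end of the set lay Cdhr1 (0.700), and just outside it Ntng1 (0.691).

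The thalamic genes among them were highest on the same pair of mice, as were others. Of the 25 most variable genes, 17 had CON 4 and CON 8 as their 2 highest arrays (68.0%), against 813 of all 9363 genes (8.68%). Slc17a7, the vesicular glutamate transporter VGLUT1, was at 8.42 on CON 4 and 8.33 on CON 8, while its lowest value was 5.03 on CON 7 and its median 6.59. Shox2, a homeobox factor of the thalamus, was at 9.08 on CON 4 and 8.44 on CON 8, with a lowest value of 5.12 on CON 1 and a median of 6.81. Prkcd, a protein kinase C abundant in sensory thalamus, was at 10.66 and 10.28 on these arrays and at 7.56 on CON 7. For all 3 genes CON 1 and CON 7 were the low end. For Slc17a7 and Shox2 this end was near the floor. Their lowest signals were 78.0 and 80.4, against lowest signals of detected probes of 72.6 to 79.7 by array. Without background correction the SD was 0.95 against 1.36 for Slc17a7, 1.00 against 1.35 for Shox2 and 1.06 against 1.16 for Prkcd.

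CON 4 and CON 8 were also the highest arrays for the following genes. Tnnt1, the troponin T of slow muscle, ranged from 5.53 to 8.48 (median 6.64), and Ramp3, a partner of the calcitonin-like receptors, from 5.67 to 8.34 (median 6.74). Gbx2, a homeobox factor needed for thalamic projections, ranged from 7.74 to 10.50, and Tcf7l2, a transcription factor of the Wnt pathway, from 8.50 to 10.59. The peptides Cck and Pth2 (tuberoinfundibular peptide) followed, at 7.78 to 10.17 and 4.96 to 7.08. Also of this set were Atp2a1, Gabrd, Pcdh9, Krt12, Vav3, Cpne9, Cit and Slitrk6, with SDs between 0.72 (Cit and Slitrk6) and 0.95 (Atp2a1 and Gabrd). The lowest signals of Pth2 (75.9), Krt12 (76.8) and Atp2a1 (82.1) were near the floor as well. Without background correction the SD of Pth2 was 0.47 against 0.82. With a detection p-value under 0.01 on all 8 arrays, 20 of the 25 most variable genes remained. In the full list of thalamic genes, 18 of 23 were detected on all 8 arrays, 16 of these 18 exceeded the 90th percentile of SD of all genes, and their median SD was 0.66 against 0.14 in all genes. This list and the others were chosen with earlier results of these data known, so such counts are descriptions. List scores average, for each array, how far the genes of a list lie from their own means over the 8 arrays. The thalamic score was 1.11 on CON 4 and 0.81 on CON 8 and lay between -0.70 on CON 7 and 0.21 on CON 6 on the other arrays.

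Without CON 4 and CON 8, 7 of these 17 genes and 7 of the other 8 remained among the 25 most variable. The SD of Slc6a3 was then 1.65 and that of Slc17a7 1.04. CON 4 and CON 8 shared more than the mouse group. Both lay at position D of their BeadChip, so the position and the mouse cannot be told apart in them. A test across positions A to D, with 2 arrays at each and chosen after these values had been seen, called 4 of 15062 probes (0.0266%, adjusted p under 0.05, either direction, F test of limma with Benjamini-Hochberg adjustment), and 1336 (8.87%) had an unadjusted p under 0.05. The probe of Wnt9b (adjusted p = 0.0136) was detected on 4 arrays only and passed the filter through the positions where it was high, B and D. The others were Tnnt1 (adjusted p = 0.0136), Vav3 (adjusted p = 0.0181) and Rgs16 (adjusted p = 0.0300). For Tnnt1 the means were 5.87 at A, 7.32 at B, 5.65 at C and 8.45 at D. Position D was the highest for all 4. Tnnt1, Vav3 and Rgs16 were among the 100 most variable genes, Tnnt1 and Rgs16 belong to the thalamic list, and position was tested because CON 4 and CON 8 had been seen highest, so these calls are a description. Of the 25 most variable genes, 18 had an unadjusted p under 0.05 in this F test, against 8.87% of all tested probes. They were chosen for their spread over the same arrays, so that count is a description too. Without background correction 76 probes were called.

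**Figure D3:**
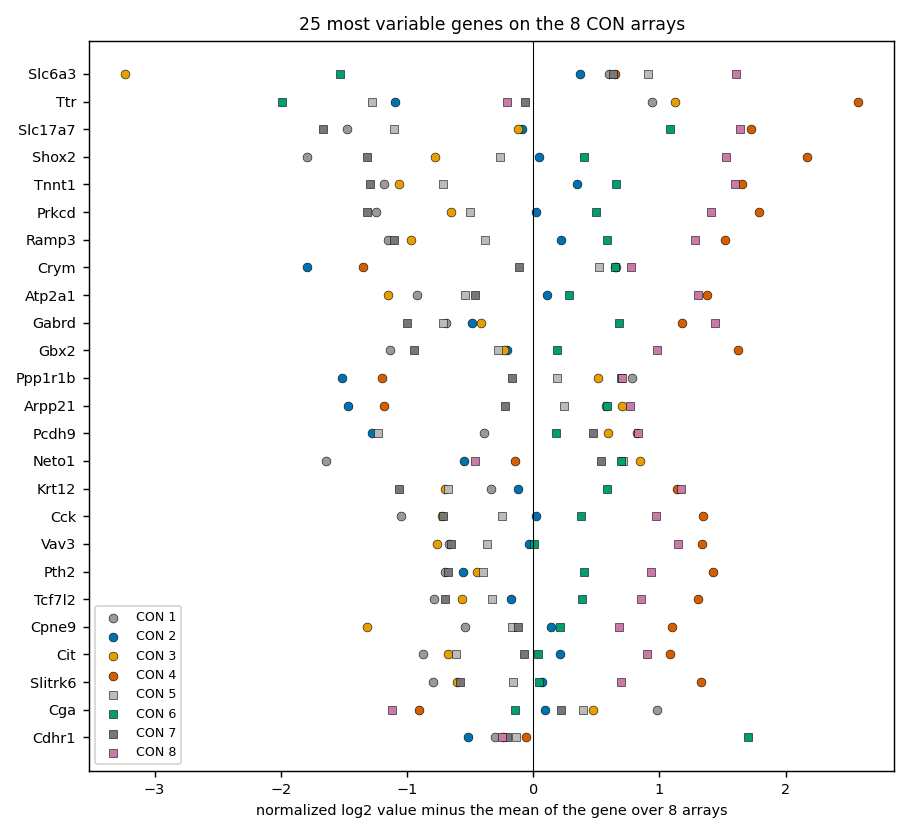
Normalized log2 value of the 25 most variable genes minus the mean of each gene over the 8 arrays, by array (circles for BeadChip 1, squares for BeadChip 2). CON 4 and CON 8 lie at the right for 17 genes, CON 2 and CON 4 at the left for Crym, Ppp1r1b and Arpp21, and CON 6 alone at the right for Cdhr1.

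Genes of the striatum split the arrays another way. Ppp1r1b, which encodes the dopamine-regulated phosphoprotein DARPP-32, was at 8.17 on CON 2 and 8.49 on CON 4 and between 9.52 and 10.47 on the other 6. Arpp21, another cAMP-regulated phosphoprotein of striatal neurons, was at 9.81 and 10.09 on the same arrays and between 11.05 and 12.04 on the others. Crym, which binds thyroid hormone, did likewise, at 7.26 and 7.70 against 8.94 to 9.83. Over all genes 3.94% had CON 2 and CON 4 as their 2 lowest arrays. Drd1, the D1 dopamine receptor, followed them at 7.18 on CON 2 and 7.64 on CON 4 against 8.08 to 9.06. Other detected probes varied less. For Arpp21, another probe had an SD of 0.31 against 0.88 and was lowest on CON 3. For Ppp1r1b, other probes had SDs of 0.25 (lowest on CON 4) and 0.42 (lowest on CON 2) against 0.90. Of 13 striatal genes with a named probe all 13 were detected on all 8 arrays, 11 of them exceeded the 90th percentile of SD, and the list score was lowest on CON 2 (-0.53) and CON 4 (-0.45) and highest on CON 8 (0.37).

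Of the 7 genes of monoamine and histamine neurons detected on all arrays, 3 were lowest on CON 3, 2 on CON 6, 1 on CON 2 (Drd2) and 1 on CON 8 (Hdc). CON 3 and CON 6 were the 2 lowest arrays of 2.99% of all genes. They were so for Th, the rate-limiting enzyme of dopamine synthesis, at 7.24 on CON 3 and 7.53 on CON 6 against 7.78 to 8.61 on the others. Slc18a2, the vesicular monoamine transporter, was at 7.40 on CON 3 and 7.27 on CON 6 against 7.71 to 8.15. Ddc, the decarboxylase of the pathway, spanned 9.90 to 10.57 with the same pair lowest. Dbh, which turns dopamine into noradrenaline, and the serotonin transporter Slc6a4 were not detected on any array. The labels name no difference between CON 3 and CON 6 and the other mice.

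The remaining variable genes were Cdhr1, Neto1 and Cga. Cdhr1, a cadherin-related protein of photoreceptors, was at 8.20 on CON 6 and between 5.98 and 6.44 on the other 7. Neto1, an auxiliary subunit of kainate receptors, was lowest on CON 1 (6.56) and highest on CON 3 (9.05, median 8.40). Its other 2 detected probes had SDs of 0.11 and 0.13 against 0.87. Cga, the common alpha subunit of the pituitary glycoprotein hormones, went from 5.49 on CON 8 and 5.71 on CON 4 to 7.59 on CON 1, with CON 4 and CON 8 lowest as in 13.4% of all genes. Of the 25 genes, 5 had another probe detected on all 8 arrays, and of these 7 probes 4 exceeded the 90th percentile of SD and 3 had the same highest array.

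Of 13 pituitary genes with a named probe, 7 were detected on all 8 arrays, 3 on some and 3 on none. The score of those 7 was lowest on CON 8 (-0.43) and CON 4 (-0.37) and highest on CON 2 (0.24) and CON 1 (0.23). Gh and Prl, given next, were not part of it. The list also shares Pomc and Gal with the hypothalamic peptides, so the score is not one of pituitary tissue alone. Gh, growth hormone, was detected on 4 of 8 arrays, with log2 values of 10.62 on CON 1, 8.39 on CON 5, 5.91 on CON 7 and at most 4.96 on the others. Prl, prolactin, was detected on 3 arrays, at 10.16 on CON 1, 7.31 on CON 5 and 5.25 on CON 7. Both genes were thus highest on CON 1, then on CON 5 and then on CON 7, while Lhb, Fshb and Tbx19 were not detected on any array. The habenular list had a score of 0.54 on CON 4 and -0.13 on CON 8. Gpr151, a receptor confined largely to habenular neurons, was detected on 6 arrays and was at 8.82 on CON 4, 6.03 on CON 8 and at most 5.43 on the others.

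Red cell genes varied between mice in a pattern of their own. The log2 value of Hba-a1 went from 13.15 on CON 4 and 13.32 on CON 1 to 14.46 on CON 7 (median 13.91). Alas2, the erythroid enzyme of haem synthesis, went from 7.82 on CON 1 and 7.93 on CON 4 to 9.26 on CON 7 (median 8.81). Slc4a1, the band 3 anion exchanger, ranged from 6.21 on CON 2 to 8.07 on CON 3. The 6 red cell genes detected on all arrays had a median SD of 0.44. The score of this list was lowest on CON 1 (-0.52) and highest on CON 5 (0.39).

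Meningeal genes set CON 2 and CON 8 apart. All 22 genes of this list with a named probe were detected on all 8 arrays, and 14 of them exceeded the 90th percentile of SD. Slc47a1 was at 7.33 on CON 8 and between 8.34 and 9.06 elsewhere. Ptgds, the prostaglandin D synthase made by the arachnoid and by oligodendrocytes, was highest on CON 2 (12.67) and lowest on CON 8 (11.10). The score was 0.44 on CON 2 and -0.46 on CON 8. Acta2, the smooth muscle actin of arterioles, was at 11.49 on CON 2 against 9.72 to 10.70 on the other arrays.

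Of the 22 hypothalamic peptide genes detected on all arrays, 12 were lowest on CON 4 and 5 on CON 8, where 21.4% and 16.5% of all genes were lowest. Avp, vasopressin, was at 10.38 on CON 4, 10.14 on CON 8 and between 10.91 and 11.55 on the other 6 arrays. Hcrt, the orexin precursor, was at 10.20 and 10.18 on these 2 against 10.74 to 11.28. Gal, galanin, was at 10.49 and 10.48 against 10.95 to 11.33. Cartpt moved least in this list, with an SD of 0.11 and values of 10.32 to 10.70. Of the 22 genes 17 exceeded the 90th percentile of SD, and the list score was -0.38 on CON 4, -0.25 on CON 8 and between 0.04 and 0.17 on the others. The regional transcription factors gave -0.33 on CON 4, -0.25 on CON 8 and 0.01 to 0.16 on the others. The thalamic list, given above, was highest on this pair, and its part in the peptide values was not tested.

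**Figure D4:**
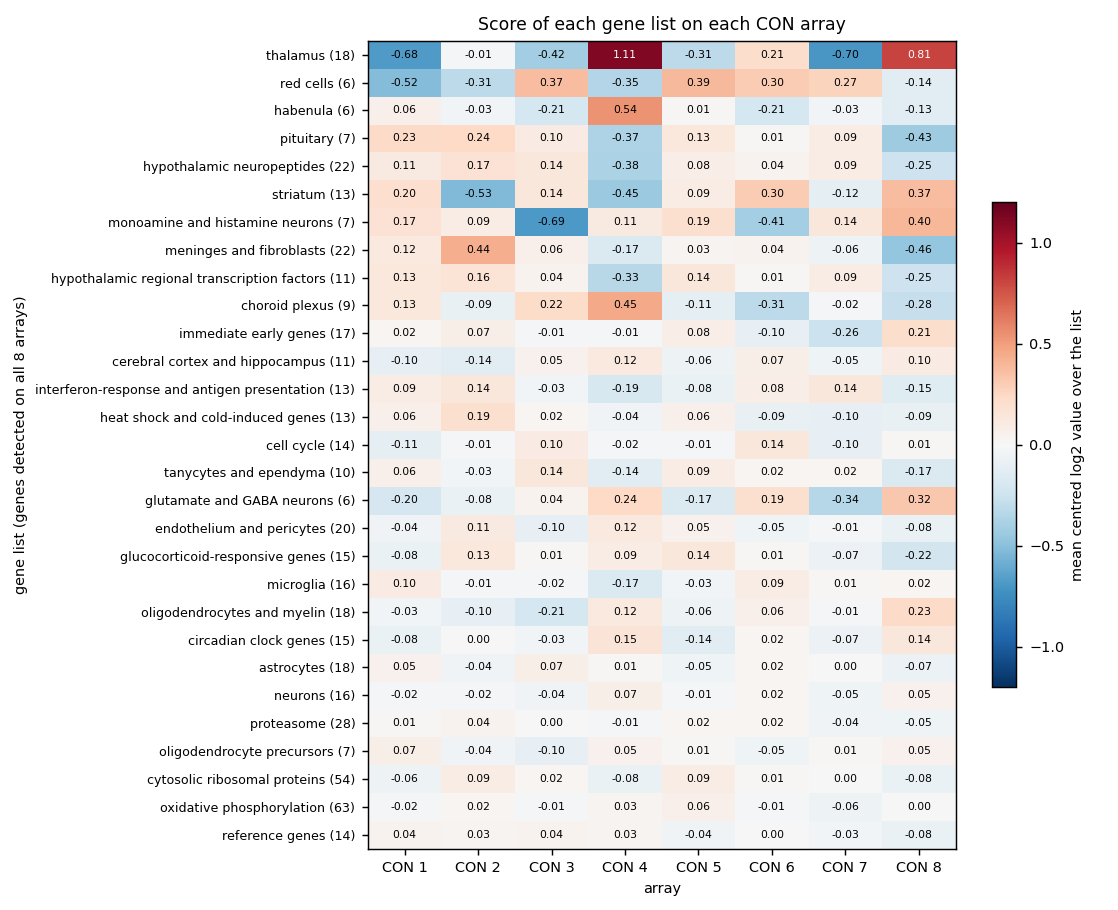
Score of each of 29 gene lists on each CON array, with the number of genes detected on all 8 arrays in brackets and lists ordered by their median SD. Colour shows the mean centred log2 value. The thalamic list spans 1.81 between CON 7 and CON 4, the proteasome list 0.09.

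Genes of cells found throughout the block varied less than those lists. The 16 neuronal genes detected on all arrays had a median SD of 0.11 and a score range of 0.12, and 18 astrocytic genes had a median SD of 0.13. Among 18 oligodendrocyte genes the median SD was 0.17, and 12 of them, among them Mog (10.52 to 11.39) and Trf, the iron carrier transferrin (11.79 to 12.62), were highest on CON 8, as were 12.99% of all genes. The score of this list was lowest on CON 3 (-0.21) and highest on CON 8 (0.23). The 16 microglial genes had a median SD of 0.17, with the lowest score on CON 4 (-0.17).

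The lists of the basic machinery of the cell were bright. The median SD was 0.09 over 54 ribosomal protein genes and over 63 genes of oxidative phosphorylation, and 0.11 over 28 proteasome genes, against 0.14 in all 9363 genes and 0.11 in those between 7.86 and 13.08 in level. Of the common reference genes, Hprt ranged from 12.35 to 12.51 and Gapdh from 13.66 to 13.83. Eef1a1, a translation elongation factor, was the exception, with values of 7.87 to 8.16 on CON 1 to CON 4 and 7.13 to 7.43 on CON 5 to CON 8. The BeadChips did not overlap for Eef1a1, as for 370 of 9363 genes (3.95%), and its difference of -0.77 ± 0.09 (BeadChip 2 minus BeadChip 1, SE) had an adjusted p of 0.114 by limma.

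The 15 steadiest genes, taken between the median and the 99th percentile of level, had SDs from 0.022 to 0.034. Smarcd3, a subunit of the SWI/SNF chromatin remodelling complex, had the lowest, with values between 9.19 and 9.25 (median 9.21), a 1.04-fold span. Csnk1e, a casein kinase that acts in the circadian clock, lay between 10.59 and 10.65, and Eif2b1, a subunit of the exchange factor of translation initiation, between 8.37 and 8.46. Others were Atp1b2, the astrocytic subunit of the sodium pump (12.14 to 12.22), Atp6v0a1, of the vacuolar proton pump (12.44 to 12.53), the zinc transporter Slc39a12 (11.63 to 11.71) and Napa, which recycles SNARE complexes (9.38 to 9.46). Epdr1, Smim14, Map11, Tmed9, Tmem30a, Smim26, Ccdc126 and Ash2l, of the histone H3K4 methyltransferase complexes, completed the set. The next in order were Pick1 (SD 0.034) and Prr14 (SD 0.034), so that the end of the set marks no step.

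Among the 100 steadiest, 7 belonged to any of the 29 lists, against 5.72% of the genes in the same range of level. Of the 7, 4 encoded proteasome subunits (Psmc2, Psmb2, Psma3 and Psma4). Among the 100 most variable, 32 belonged to a list, of which 11 were thalamic, against 5.01% of all 9363 genes. The lists were chosen with earlier results of these data known, so these shares are a description and not a test. Other probes of the steadiest genes were less steady. For 7 of the 15 there were 8 further detected probes, with SDs between 0.06 and 0.39 (median 0.13).

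Variation was then compared on the BeadChip that had not chosen the genes. Both BeadChips hold 1 array at each position, so a spread that went with position would recur on the other, and the part of position was not tested. Of the 100 most variable genes on the 4 arrays of BeadChip 1, 43 were among the 100 and 77 among the top 10% on BeadChip 2, where their median SD was 0.42 against 0.12 for all genes. Of the 100 chosen on BeadChip 2, 43 were among the 100 and 91 among the top 10% on BeadChip 1, with a median SD of 0.52 against 0.13. Of the 100 steadiest genes, 13 chosen on BeadChip 1 and 15 chosen on BeadChip 2 were among the steadiest 10% on the other. These counts are near the 10% of all 5051 genes in the range of level searched. Only 1 of each 100 was among the 100 steadiest on the other. The median SD of those chosen on BeadChip 1 was 0.082 on BeadChip 2, against 0.095 for all genes in that range. For those chosen on BeadChip 2 it was 0.079 on BeadChip 1, against 0.104. Across all 9363 genes the SDs on the BeadChips had a Spearman rho of 0.48, given as a description since genes share arrays. Dim genes varied more, as given above, and a gene dim on 1 BeadChip is mostly dim on the other. The part of level in rho and in these counts was not tested. Crym and Cdhr1 were the least alike of the most variable genes, with SDs of 1.30 and 0.40 for Crym and of 0.19 and 0.95 for Cdhr1 on BeadChips 1 and 2.

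**Figure D5:**
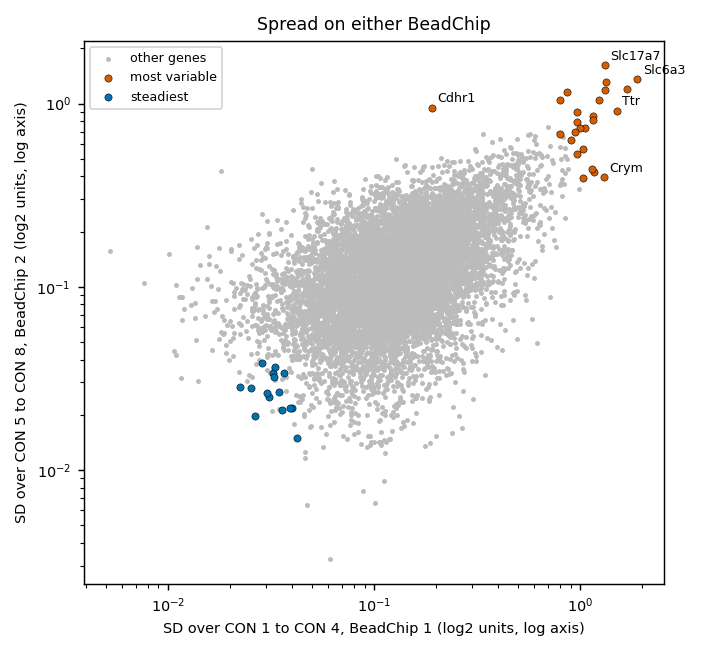
SD over CON 1 to CON 4 (BeadChip 1) against SD over CON 5 to CON 8 (BeadChip 2) of each of 9363 genes, both in log2 units on log axes. The most variable genes lie at the upper right, apart from Cdhr1 (0.19 and 0.95), and the steadiest, which were chosen on all 8 arrays, at the lower left.

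The level of no gene differed between the BeadChips past the threshold. The test of BeadChip 2 against BeadChip 1, 4 mice each, called 0 of 15062 probes (0%, adjusted p under 0.05 by limma with Benjamini-Hochberg adjustment), and 975 (6.47%) had an unadjusted p under 0.05. The lowest adjusted p was 0.114. In simulated data of the same size the test called 91 of 100 probes changed by 1 on the log2 scale. That simulation drew each probe independently and changed 100 more by 2, which eases the adjusted threshold. Its share therefore does not carry over to these arrays. Among the most variable genes the SE of the difference reached 0.93 (Slc6a3), so 0 calls do not show that the BeadChips were alike. The 0 calls came out also under each of the other 18 settings tried, with 428 to 1266 probes at an unadjusted p under 0.05.

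Pairs of genes with a shared source were followed over the 8 mice where both genes were detected on all arrays, which held for 6 pairs. The pairs, like the lists, were chosen with earlier results of these data known, so their p-values are no independent test. Avp and Oxt, the hormones of the posterior pituitary, moved together (r = 0.96, exact permutation p = 0.00156, adjusted p = 0.00234; rho = 0.88, exact permutation p = 0.00724, adjusted p = 0.0109). Without CON 4 and CON 8, the arrays farthest from the median of Avp, r was 0.85. Pmch and Hcrt, made by neighbouring neurons of the lateral hypothalamus, did so too (r = 0.97, exact permutation p = 0.000570, adjusted p = 0.00114; rho = 0.88, exact permutation p = 0.00724, adjusted p = 0.0109), with r = 0.88 without CON 4 and CON 8. Oxt was at 10.03 on CON 4 and 10.12 on CON 8 and between 10.66 and 11.13 on the others. Pmch was at 12.29 on CON 4 and 12.46 on CON 8 and between 12.84 and 13.15 on the others. Avp, Oxt, Pmch and Hcrt thus all had CON 4 and CON 8 as their lowest arrays. No pair of unlike source was computed, so whether these correlations are particular to a shared source was not tested.

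The thalamic and red cell pairs also moved together. Prkcd and Tcf7l2 gave r = 0.99 (exact permutation p = 4.96e-05, adjusted p = 0.000298; rho = 0.98, exact permutation p = 0.000397, adjusted p = 0.00149), and r = 0.96 without CON 4 and CON 8. Both are among the 25 most variable genes and are highest on CON 4 and CON 8, so their r is a description. Hba-a1 and Alas2 gave r = 0.98 (exact permutation p = 0.000446, adjusted p = 0.00114; rho = 0.97, exact permutation p = 0.000496, adjusted p = 0.00149), and r = 0.98 without CON 1 and CON 4. The tests were two-sided, over all 40320 orders of the 8 arrays, and adjusted over 6 pairs. Each BeadChip held only 4 of these mice, too few for a correlation of its own, and with the mean of each BeadChip removed r was 0.96 for Avp and Oxt, 0.98 for Pmch and Hcrt, 0.99 for Prkcd and Tcf7l2 and 0.97 for Hba-a1 and Alas2.

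The meningeal and immediate early pairs were the last 2. Dcn and Igf2, both made by meningeal fibroblasts, gave r = 0.85 (exact permutation p = 0.0109, adjusted p = 0.0130; rho = 0.79, exact permutation p = 0.0279, adjusted p = 0.0335). Without CON 2 and CON 8 it was 0.32, so the relation rests on those arrays. The immediate early genes Fos and Egr1, which neurons switch on within minutes of activity, gave r = 0.59 (exact permutation p = 0.118, adjusted p = 0.118; rho = 0.29, exact permutation p = 0.501, adjusted p = 0.501), and 0.65 without CON 2 and CON 7. Egr1 was lowest on CON 7 at 10.93, lay between 11.30 and 11.42 on 6 arrays and was highest on CON 8. With the mean of each BeadChip removed r was 0.86 for Dcn and Igf2 and 0.61 for Fos and Egr1.

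The letters of the promoters, which the rankings did not use, were then described. Windows of 250 bases before and 50 after the annotated start were taken from RefSeq (GRCm38.p6, first start of each gene) and matched for 72 of the 100 most variable, 82 of the 100 steadiest, 79 of the 100 brightest and 7610 of the 9363 genes. The letters TATAAA, searched on both strands as TATAAA and its reverse complement TTTATA, were found in 18.1% of the most variable, 16.5% of the brightest and 4.88% of the steadiest, against 7.37% of the 7610 and 14.2% of all 27025 promoters in the table. Between 50 and 11 bases before the start they were found in 3 of the 72, 2 of the 79 and 1 of the 82, against 1.39% of the 7610 and 2.64% of all promoters in the table. The median number of CG pairs was 16.5 in the most variable, 19 in the brightest, 20.5 in the steadiest and 21 in all detected genes. A match is only a run of letters and was not tested as a binding site.

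Promoters of each kind are printed here to show these letters. Tnnt1 and Cga are variable genes with TATAAA 30 bases before the start, Ckb is a bright gene with it 28 bases before, Slc6a3 is the most variable gene and has none, and Smarcd3 is the steadiest gene, with 40 CG pairs against 1 in Cga. They are given 5′ to 3′ on the strand of the gene, with every CG, TATAAA and TTTATA in capitals.
Tnnt1 (chr7:4515926-4516225, minus strand): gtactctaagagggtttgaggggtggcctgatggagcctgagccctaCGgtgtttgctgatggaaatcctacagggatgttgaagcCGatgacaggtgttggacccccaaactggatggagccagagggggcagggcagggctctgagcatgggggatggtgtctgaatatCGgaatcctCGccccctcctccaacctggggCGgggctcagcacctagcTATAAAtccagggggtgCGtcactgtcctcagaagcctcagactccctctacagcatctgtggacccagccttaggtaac
Cga (chr4:34893529-34893828, plus strand): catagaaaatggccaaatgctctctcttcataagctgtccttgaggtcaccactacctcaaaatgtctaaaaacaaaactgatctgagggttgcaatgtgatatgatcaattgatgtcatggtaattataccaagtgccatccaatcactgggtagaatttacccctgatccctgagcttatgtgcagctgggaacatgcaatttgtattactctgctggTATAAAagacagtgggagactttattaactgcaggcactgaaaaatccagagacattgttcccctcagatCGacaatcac
Ckb (chr12:111672289-111672588, minus strand): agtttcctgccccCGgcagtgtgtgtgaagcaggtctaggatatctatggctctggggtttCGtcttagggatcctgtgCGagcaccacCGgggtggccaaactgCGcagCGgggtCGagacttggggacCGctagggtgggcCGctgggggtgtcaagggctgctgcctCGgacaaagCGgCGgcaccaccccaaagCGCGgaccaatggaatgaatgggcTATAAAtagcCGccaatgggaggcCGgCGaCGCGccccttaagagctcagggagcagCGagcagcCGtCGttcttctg
Slc6a3 (chr13:73536497-73536796, plus strand): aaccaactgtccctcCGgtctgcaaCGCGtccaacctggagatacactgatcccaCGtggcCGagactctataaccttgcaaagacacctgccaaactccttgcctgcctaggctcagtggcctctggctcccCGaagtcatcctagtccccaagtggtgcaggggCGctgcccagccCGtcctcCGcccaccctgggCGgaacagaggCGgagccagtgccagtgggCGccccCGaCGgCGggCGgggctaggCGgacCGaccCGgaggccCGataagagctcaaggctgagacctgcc
Smarcd3 (chr5:24601953-24602252, minus strand): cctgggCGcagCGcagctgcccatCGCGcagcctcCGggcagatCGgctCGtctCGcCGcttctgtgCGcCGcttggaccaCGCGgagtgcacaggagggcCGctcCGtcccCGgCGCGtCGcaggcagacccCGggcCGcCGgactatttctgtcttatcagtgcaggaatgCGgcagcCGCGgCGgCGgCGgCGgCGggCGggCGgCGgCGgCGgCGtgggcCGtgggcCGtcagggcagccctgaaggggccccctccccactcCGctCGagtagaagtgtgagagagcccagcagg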

How the data were processed

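Hypothalamic RNA of single mice was measured on 1 array each, and the 8 CON arrays were used. Signals were deposited by the authors as intensity, averaged by GenomeStudio over the beads of a probe, without background subtraction or normalization between arrays. The authors deposited beside each signal a detection p-value, which compares it with the negative controls of the array. The deposited log2 values, which the authors quantile-normalized in GeneSpring and set relative to the probe medians, served as an alternative. Labelling was done with a TargetAmp amplification kit.

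From the intensities, background was corrected with the nec function of limma 3.58.1 in R 4.3.3 (background from detection p-values, offset 16), and signals were quantile-normalized over the 8 CON arrays and taken to log2. Symbols were updated by Entrez ID. Of 25697 probes 23978 carried a symbol, 23962 of these were matched to RefSeq, and 1719 carried none. A gene was taken by its brightest probe for signal, and by its probe with the highest mean, detected on all 8 arrays, for spread. The steadiest genes were sought among genes whose mean exceeded that of 50% of the probes detected on all 8 arrays and lay below their 99th percentile.

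BeadChips and positions were compared by linear models in limma (lmFit, eBayes) in probes detected on at least 4 of 8 arrays, with Benjamini-Hochberg adjustment, and p-values measure only the spread between these mice. The tests were tried on simulated data. Of 10 pairs of genes listed, 6 could be used. Agrp and Enpp2 were not analysed here, and Gh and Prl were not detected on all arrays. Correlations were tested by exact permutation in Python 3.11.15 with numpy 2.4.6.

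The genes named are the 25 brightest, 25 most variable and 15 steadiest, those of the pairs, and examples and undetected markers from 29 lists. The members, lists and pairs were chosen with earlier results of these data known. Wnt9b and the position test were added after the values had been seen, as were the promoter letters and the comparison with other probes. The genes called across positions and the next genes in each order were named for their values. Alternatives were other detection limits, normalizations, background treatments, measures of spread, choices of probe and each array left out in turn.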

Additional observations from a re-analysis of the deposited data

Results flagged for a closer look

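Of 105 sets of 8 values tested for a single array far from the rest, 8 passed Dixon's limit of 0.526. That limit flags about 1 in 20 independent sets of normal values. These sets share the same arrays and include genes chosen for their spread, so that rate is no measure for them. The value given is the gap to the nearest array over the whole range. Cdhr1 was high on CON 6 (8.20 against a next value of 6.44, ratio 0.791), and Egr1 was high on CON 8 (next value 11.42, ratio 0.546). Among the brightest genes, CON 3 was low for Atp5g3 (14.01 against 14.16, ratio 0.587) and Syt11 (13.85 against 13.99, ratio 0.655) and high for Ttc3 (14.38 against 14.19, ratio 0.660), and CON 5 was low for Prnp (13.92 against 14.01, ratio 0.531). The score of the habenula list was high on CON 4 (0.54 against 0.06, ratio 0.633), and that of the microglia list was low on CON 4 (-0.17 against -0.03, ratio 0.534).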

How the results depend on the processing

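The 25 brightest genes were the same with normalized values and with the mean in place of the median, and 24 to 25 of them remained when each array was left out in turn. The probes detected on all arrays numbered 12568 at a detection p-value under 0.01 and 13345 to 13446 with an array left out.

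Of the 25 most variable genes, 18 to 24 remained among the 25 under the other detection limits, normalizations, the background setting, the deposited values, the trend with the mean, the BeadChip means removed and another choice of probe, and 21 to 25 with 1 array left out. The median absolute deviation kept 16. Leaving out CON 4 and CON 8 together kept 14, of which 7 were of the 17 genes highest on those arrays and 7 of the other 8. Genes with an SD above 0.5 numbered 36 without background correction, 229 in the deposited values, 44 without CON 4 and CON 8 and 63 to 110 with 1 array left out. Values without background correction hold a constant that shrinks log differences of dim probes. For the other moves the cause was not tested.

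The steadiest genes were chosen for a low SD on these same arrays. Leaving 1 array out keeps most of the values that chose them, so their place is then a description. All 15 stayed within the lowest 10% of SD with any array left out (15 to 15) and in most settings, 14 by the median absolute deviation, 10 with the most variable probe of a gene and 3 without normalization between arrays. Of the 15 themselves, 5 remained with median scaling, 0 without normalization, 1 by the median absolute deviation, 8 with BeadChip means removed, 8 with the most variable probe of a gene, 2 without CON 4 and CON 8, and 4 to 8 with 1 array left out. Probes called across positions numbered 77 without normalization, 76 without background correction and 2 in the deposited values. BeadChip calls were 0 with each array left out (0 to 0).

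Leaving out 1 array gave r of 0.95 to 0.97 for Avp and Oxt, 0.97 to 0.98 for Pmch and Hcrt, 0.98 to 0.99 for Hba-a1 and Alas2 and for Prkcd and Tcf7l2, 0.74 to 0.98 for Dcn and Igf2 and 0.38 to 0.77 for Fos and Egr1. By exact permutation, Dcn and Igf2 missed the threshold without CON 2 (adjusted p = 0.0585) or CON 8 (adjusted p = 0.0719), and Fos and Egr1 passed it without CON 2 (r = 0.77, adjusted p = 0.0167). Of the values for single genes and lists, 726 moved by less than the spread they were set against and 76 by more. No paired analysis was possible because only 1 group was used. Differences near background are limited by signal, since a probe at background gives no level.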
